A study of Mus musculus with 16 samples.

Results

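Adam11, Ephb2 and Adcy3 are 3 genes whose liver RNA was followed in mice that carried or lacked thrombospondin 1 (TSP1, gene Thbs1) in their platelets. They were chosen by name, from their difference between diets in the platelet knockout livers, and make up 3 of the 5205 genes that have a row in either of 2 deposited tables. All 3 genes had a row in the knockout table of 3399 genes, and all 3 also had a row in the control table of 2558 genes. Liver RNA was sequenced from 16 male C57BL6 mice, 4 in each of 4 groups, after 32 weeks of a low-fat (LF) diet or of the AMLN diet, which is rich in fat, fructose and cholesterol and is used to induce steatohepatitis. Control mice (WT, TSP1F/F) were littermates with both Thbs1 copies floxed and no Cre. Knockout mice (KO, TSP1ΔPf4) carried the same floxed Thbs1 together with Pf4-Cre, which is driven by the platelet factor 4 promoter. It is used to remove genes in megakaryocytes and the platelets they shed, and the paper mentions that a more stringent driver exists. The paper also reports reduced liver Tsp1 mRNA in AMLN-fed knockouts by qPCR. Whether the liver's own cells kept Thbs1 cannot be seen here.

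Adam11 belongs to the ADAM proteins, membrane proteins with a disintegrin and a metalloprotease domain; ADAM11 itself lacks a working protease site and is best known as a surface protein of neurons. Ephb2 is a receptor tyrosine kinase of the Eph family, which binds ephrin-B proteins on neighbouring cells and signals in both cells on contact, guiding axons and sorting cells in epithelia. Adcy3 is an adenylyl cyclase, which makes cyclic AMP when the stimulatory G protein is activated by a receptor at the cell surface; it is best known from olfactory neurons and primary cilia. None of the 3 is a classical marker of hepatocytes.

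In the deposited coordinates (mm10), Adam11 (ENSMUSG00000020926) lies on chromosome 11 from 102761439 to 102780262 on the plus strand, Ephb2 (ENSMUSG00000028664) on chromosome 4 from 136647539 to 136835988 on the minus strand, and Adcy3 (ENSMUSG00000020654) on chromosome 12 from 4133103 to 4213525 on the plus strand. All 3 are protein-coding and sit on different chromosomes. RefSeq promoter windows of 300 bases, 250 before and 50 after a transcription start, were at hand for 2 of the 3 genes (build GRCm38.p6, the assembly also called mm10). They are shown because both genes were higher on AMLN diet in KO livers, with capitals marking every match to the motifs that were searched, on either strand. The Ephb2 window is chr4:136835963-136836262 on the minus strand, and the upstream one of 2 Adcy3 windows is chr12:4133147-4133446 on the plus strand, which lies inside the deposited span of the gene.
Ephb2 promoter: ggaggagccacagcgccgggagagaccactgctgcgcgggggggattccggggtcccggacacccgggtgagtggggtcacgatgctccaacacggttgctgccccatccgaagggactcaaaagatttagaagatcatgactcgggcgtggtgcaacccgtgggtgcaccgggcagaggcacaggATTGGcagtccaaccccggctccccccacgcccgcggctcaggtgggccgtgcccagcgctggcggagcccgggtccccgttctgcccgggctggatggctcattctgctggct
Adcy3 promoter: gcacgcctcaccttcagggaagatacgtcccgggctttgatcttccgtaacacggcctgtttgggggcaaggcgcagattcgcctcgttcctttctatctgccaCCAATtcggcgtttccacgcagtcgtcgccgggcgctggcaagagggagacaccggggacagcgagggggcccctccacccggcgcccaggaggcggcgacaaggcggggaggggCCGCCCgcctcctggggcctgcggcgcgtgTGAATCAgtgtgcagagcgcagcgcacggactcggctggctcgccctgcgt
The Ephb2 window held 1 match, a CCAAT box (CCAAT) read on the opposite strand 64 bases before the start. The Adcy3 window held 3 matches, a CCAAT box, a GC box (GGGCGG) on the opposite strand, and a match to the loose AP-1 pattern TGANTCA that spans the start. This pattern allows any base in its middle, which was A here (TGAATCA). Of 32544 promoter windows of the same length, 37.4% held CCAAT, 35.9% GGGCGG and 7.79% TGANTCA. No match was found in either window to the TATA box TATAAA (in 13.6% of all windows), the E-box CACGTG (7.17%), the cyclic AMP response element TGACGTCA (1.8%) or the nuclear receptor direct repeat with 1 base between its repeats (0.0399%). The second Adcy3 window held no match to any of the 7 motifs. Both printed windows were 68.7% G and C, against a median of 53% over all windows.

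Read depth differed between diets. Library totals were 18135112 to 26649603 reads in WT LF, 18362810 to 39753019 in WT AMLN, 17127965 to 20700888 in KO LF and 23221536 to 31363462 in KO AMLN livers, and levels are therefore given as reads per 1000000 reads of the library (CPM). The tables list only genes that passed the authors' unadjusted p of 0.05 for the diet, so most genes tested here differ between the diets and a background is given beside each count. Thbs1 itself had a row in the WT table, at 0.313 to 1.82 CPM on LF and 1.94 to 13.3 CPM on AMLN diet, and none in the KO table, so the genotype labels could not be checked on the targeted gene here. Of the hepatocyte markers looked for, Ttr was listed in both tables and Hnf4a in the KO table, and their levels are given with the other markers.

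Adam11 was the most abundant of the 3 genes and was higher in AMLN-fed than in LF-fed livers of both genotypes. In the KO mice it stood at 8.92, 7.68, 6.95 and 9.44 CPM on LF diet, and at 38.9, 29.5, 36.8 and 33.1 CPM on AMLN diet. Every KO liver on AMLN diet was above every KO liver on LF diet, with a gap between 9.44 and 29.5 CPM. Mean levels were 8.25 ± 1.14 CPM (SD, n = 4) on LF and 34.6 ± 4.15 CPM (SD, n = 4) on AMLN diet, a ratio of 4.19. Since the KO comparison chose the genes, its values are a description and carry no test. In WT livers Adam11 stood at 4.44, 8.47, 2.1 and 9.34 CPM on LF diet and at 76.4, 62.4, 30.5 and 29.6 CPM on AMLN diet. The groups again did not overlap, but the WT livers were far more scattered, with 2 of the AMLN livers above 60 CPM and 2 near 30 CPM. Mean levels were 6.09 ± 3.41 CPM (SD, n = 4) and 49.7 ± 23.4 CPM (SD, n = 4), a ratio of 8.17. 

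Ephb2 was low on LF diet and stood at very different levels from one AMLN-fed liver to the next. KO livers on LF diet held 0.425, 0.145, 0.467 and 0.531 CPM, which rest on 3 to 10 reads each. On AMLN diet they held 16, 2.75, 7.75 and 1.12 CPM, a 14.3-fold spread within the group, with the lowest of them 2.11 times the highest LF liver. Means were 0.392 ± 0.17 CPM (SD, n = 4) on LF and 6.91 ± 6.69 CPM (SD, n = 4) on AMLN diet, a ratio of 17.6 to which replicate 1 contributed most. Without that liver the fitted log2 difference in KO moved from 4.14 to 3.30. WT livers held 1.41, 1.55, 0 and 0.075 CPM of Ephb2 on LF diet and 9.2, 5.3, 15.3 and 2.01 CPM on AMLN diet. These groups did not overlap either, though the lowest AMLN liver was only 1.3 times the highest LF liver, and 2 of the LF livers had at most 2 reads. The WT means were 0.76 ± 0.836 CPM (SD, n = 4) and 7.95 ± 5.71 CPM (SD, n = 4), a ratio of 10.5.

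Adcy3 was at the edge of detection on LF diet. In KO livers on LF diet it had 0, 0, 1 and 0 reads, or 0, 0, 0.0584 and 0 CPM. On AMLN diet the KO livers had 22, 19, 26 and 12 reads, or 0.734, 0.781, 0.83 and 0.517 CPM. The 4 AMLN livers lay close together at 0.715 ± 0.138 CPM (SD, n = 4), above all 4 LF livers. Because the LF libraries lay at or under a floor of 3 reads each, the level on AMLN diet was at least 4.48-fold higher, and no closer fold can be read. WT livers had 0, 0.429, 0 and 0.15 CPM on LF diet and 1.03, 0.0898, 2.49 and 2.94 CPM on AMLN diet. Here the groups overlapped, since replicate 2 on AMLN diet had 2 reads while replicate 2 on LF diet had 8. The other 3 AMLN-fed WT livers stood above all LF-fed ones, and the means were 0.145 ± 0.202 CPM (SD, n = 4) and 1.64 ± 1.32 CPM (SD, n = 4).

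**Figure D1:**
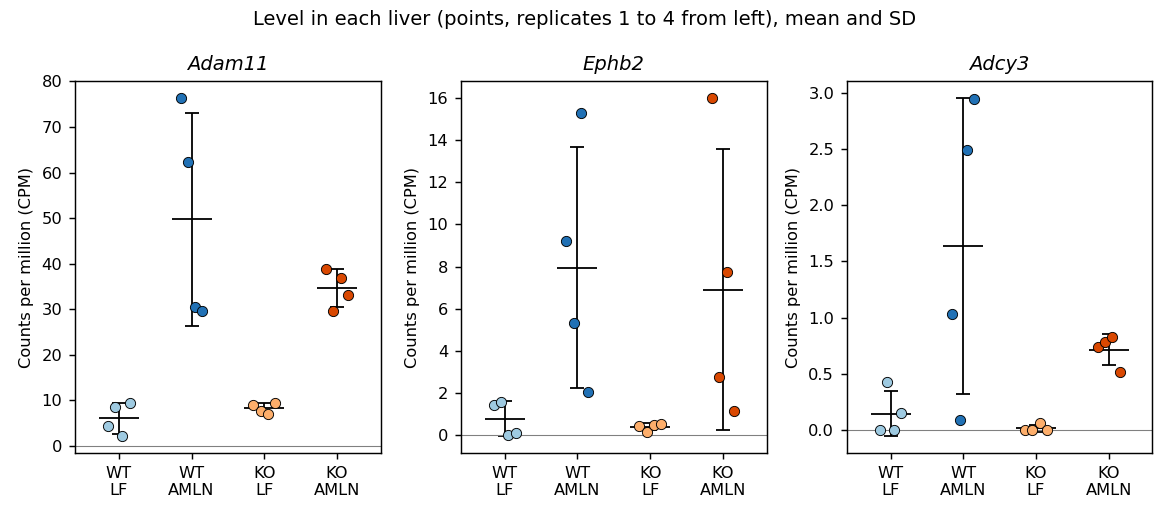
Level of each gene in every liver, in CPM on a linear axis, for WT and KO mice on LF or AMLN diet. Points are single mice, horizontal bars the mean and whiskers the SD over 4 mice; KO livers on AMLN diet lie close together for Adam11 (29.5 to 38.9 CPM) and Adcy3 (0.517 to 0.83 CPM) and far apart for Ephb2 (1.12 to 16 CPM).

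Read per length of transcript (FPKM), the order of the 3 genes was nearly the same in every mouse. Adam11 was the highest in 16 of 16 mice, at 0.37 to 1.67 FPKM on LF and 5.21 to 13.5 FPKM on AMLN diet. Ephb2 stood above Adcy3 in 13 of 16 mice, with group means of 0.0311 to 0.0603 FPKM on LF and 0.548 to 0.631 FPKM on AMLN diet. Adcy3 had group means of 0.00234 and 0.0232 FPKM on LF and 0.115 and 0.262 FPKM on AMLN diet in KO and WT livers. The ratio of Adam11 to Ephb2 ran from 4.43 to 277 over the 15 mice with Ephb2 reads.

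The mean CPM of each gene was higher in both AMLN groups than in both LF groups. Single mice crossed this split for Ephb2, where KO AMLN replicate 4 (1.12 CPM) lay below WT LF replicates 1 and 2 (1.41 and 1.55 CPM), and for Adcy3, where WT AMLN replicate 2 (0.0898 CPM) lay below 2 WT LF livers. For Adam11 the order of the means was WT AMLN, KO AMLN, KO LF and WT LF, and the ranges overlapped within the AMLN pair and within the LF pair but not between KO AMLN and KO LF. For Ephb2 and Adcy3 the order was WT AMLN, KO AMLN, WT LF and KO LF. The genotype ranges overlapped for all 3 genes on both diets, where 14.6% of the 752 genes in both tables had no overlap on AMLN diet and 4.52% on LF diet. Within these pairs the order of the means is therefore not larger than the spread between mice.

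The difference between diets in WT livers was tested with edgeR's quasi-likelihood test on the counts, with p-values adjusted by Benjamini-Hochberg over the 16784 genes the authors had adjusted over, and genes with an adjusted p under 0.05 that differed by more than 0.25 on the log2 scale were called. The WT rows were listed on these same mice, so the test is not free of that selection. Adam11 rose by 3.03 on the log2 scale (SE 0.51, adjusted p = 0.0382), and 2.39% of the 2096 genes tested were called higher. Ephb2 was 3.40 higher on the log2 scale (SE 1.06) but did not pass, with an adjusted p of 0.249 and an unadjusted p of 0.00814, in a table where 80.2% of tested genes had an unadjusted p under 0.05. Adcy3 had too few reads for the count filter; without the filter its log2 difference was 3.45 (SE 1.32, edgeR adjusted p = 0.31). An exact two-sided permutation test of the CPM values gave p = 0.0286 for Adam11 and for Ephb2, the smallest that 4 against 4 mice allow, and p = 0.0857 for Adcy3. Non-overlapping groups with AMLN higher were found for 33.9% of the rows of the WT table, against 21.4% of the rows of the KO table, where all 3 genes were among them. The call on Adam11 was narrow, since it held without WT LF replicate 3 and was lost on leaving out any other single mouse (edgeR adjusted p = 0.0367 to 0.103). With DESeq2 and the authors' size factors, both Adam11 (3.02, adjusted p = 6.07e-07) and Ephb2 (3.41, adjusted p = 0.0215) passed, and Adcy3 did not (3.52, adjusted p = 0.117). By this rule 20.3% of the WT rows were called higher.

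The genotypes were then compared within each diet over the genes in both tables. The 3 genes were chosen on these KO mice, so for them the values, p-values and intervals are a description. On AMLN diet, Adam11 in KO against WT livers differed by -0.52 on the log2 scale (SE 0.34, edgeR adjusted p = 0.376). Adcy3 differed by -1.19 (SE 0.78, edgeR adjusted p = 0.392) and Ephb2 by -0.21 (SE 0.72, edgeR adjusted p = 0.878), and the 95% intervals reached from -1.18 to 0.13 for Adam11, from -2.71 to 0.34 for Adcy3 and from -1.61 to 1.20 for Ephb2. None of the 3 was called, where 9% of the 733 genes tested were. The median gene of this comparison stood at -0.38, and at -0.10 with TMM and -0.04 with DESeq2's own scaling, under which Ephb2's difference changed sign to 0.06 and 0.17. Ephb2 was also on the other side of 0 without KO AMLN replicate 2 (0.06), KO AMLN replicate 4 (0.15) or WT AMLN replicate 3 (0.32), so no direction can be given for it. On LF diet Adam11 differed by 0.44 (SE 0.43, edgeR adjusted p = 0.776), and Ephb2 and Adcy3 had too few reads to be tested. edgeR called 0 of 640 genes there, 44 genes (6.88%) had an unadjusted p under 0.05, and DESeq2 called 0.

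Whether the diet response itself differed between genotypes was tested as an interaction over the 16 mice. The log2 response in KO minus that in WT was -0.96 for Adam11 (SE 0.55, edgeR adjusted p = 0.451), 0.73 for Ephb2 (SE 1.34, edgeR adjusted p = 0.899) and 1.82 for Adcy3 (SE 1.73, edgeR adjusted p = 0.794). None was called, and 3 of 734 genes (0.409%) were, with the median gene at -0.34, or 0.08 with TMM. The intervals were wide, from -2.04 to 0.12 for Adam11, -1.89 to 3.36 for Ephb2 and -1.56 to 5.20 for Adcy3, so neither a like nor an unlike response of the genotypes is shown. The fitted value for Adcy3 leans on LF livers at or near 0 reads and ran from 0.57 without WT LF replicate 2 to 3.68 without KO LF replicate 3, and Ephb2 turned to -0.10 without KO AMLN replicate 1. These comparisons share mice with the diet comparisons and are not independent of them. The KO response in the interaction is the one on which the 3 genes were chosen, so its values for them are a description.

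**Figure D2:**
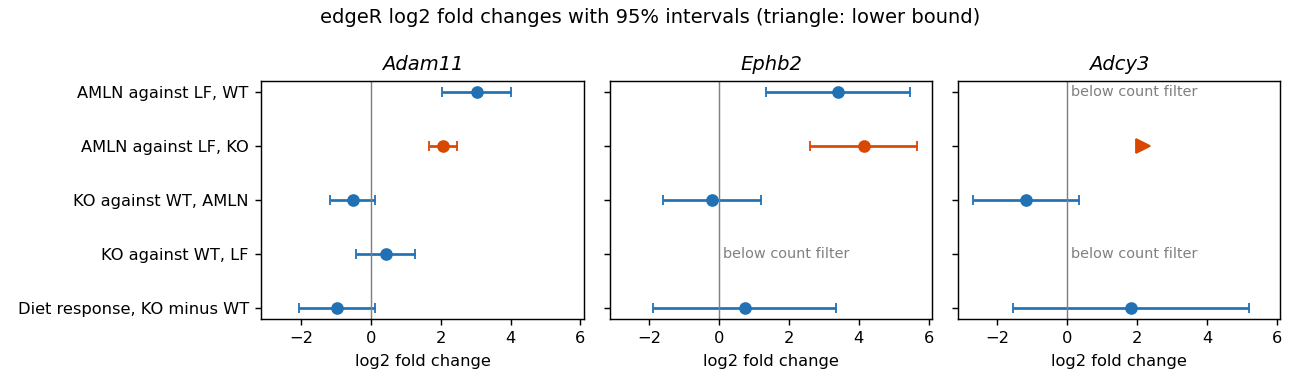
Fitted log2 fold changes (points) with 95% intervals (bars) from edgeR for the 5 comparisons, 1 panel per gene. The KO diet values (orange) chose the genes and are a description, as are the other comparisons that use the KO mice. The triangle for Adcy3 marks its lower bound of 4.48-fold. The intervals for the genotype comparisons and for the difference in diet response cross 0 for all 3 genes where they could be fitted.

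The spread between mice separated Ephb2 from the other 2 genes in KO livers on AMLN diet. On LF diet its SD of log2(CPM + 0.5) was 0.30 in KO livers, above that of 32.8% of tested genes. On AMLN diet the SD of log2(CPM + 0.5) over the 4 KO mice was 1.47 for Ephb2, above that of 99.6% of the 3089 tested genes, while it was 0.17 for Adam11 and 0.17 for Adcy3, against a median of 0.32. The added 0.5 narrows the spread of a gene as low as Adcy3, whose coefficient of variation in CPM was 19.3%, beside 12% for Adam11 and 96.9% for Ephb2. In WT livers on AMLN diet the SD was 0.70 for Adam11, 1.13 for Ephb2 and 1.16 for Adcy3, against a median of 0.50 over 2096 genes. These lay above 72.9%, 94.8% and 95% of those genes, so wide spread was not particular to Ephb2 there. KO AMLN replicate 1 had both the most Adam11 and the most Ephb2, and KO AMLN replicate 4 had the least Ephb2 and the least Adcy3. In WT AMLN livers the orders parted, with Adam11 highest in replicate 1, Ephb2 in replicate 3 and Adcy3 in replicate 4.

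Among 50 genes of ADAM proteins and their inhibitors and regulators, 9 had a row in the WT table and 2 in the KO table. Of the 7 tested in WT, 3 were called higher on AMLN diet and none lower, against 2.48% of all tested genes in either direction, and the median log2 difference was 2.01 beside 1.15 for all genes. Without Adam11 itself, 2 of 6 were called and the median was 1.93. Those called were Adam11, Adam8 (a protease of leukocytes) and Timp1 (a secreted inhibitor of metalloproteases). Adam8 had no read in any LF-fed WT liver and 1.57 to 6.26 CPM on AMLN diet, at least 23.5-fold higher. Timp1 likewise had no read on LF and 2.47 to 5.11 CPM on AMLN diet, at least 24.6-fold higher. The Adam8 call held without WT LF replicate 3 and was lost without any other single mouse (edgeR adjusted p up to 0.112), and that of Timp1 was lost without WT AMLN replicates 1, 3 or 4 or WT LF replicate 4 (up to 0.0889). The others did not pass: Timp2 was at 2.01 (SE 0.52, edgeR adjusted p = 0.16), Adam33 at 1.85, the ADAM10 partner Tspan15 at 1.00 and Adam10 at 0.64 on the log2 scale. Adam22, a close relative of Adam11 that also lacks protease activity, had at most 2 reads on LF and up to 28 on AMLN diet, too few to test. Adam32 went the other way, from 0 to 1.38 CPM on LF diet to no read in any AMLN-fed liver. It was at least 4.74-fold lower in the mean, but the ranges overlapped. It had too few reads for edgeR, and DESeq2 with its own scaling called it lower (adjusted p = 0.0365) while DESeq2 with the deposited size factors did not (0.0991). In KO livers the only other listed gene was Timp3, which did not pass at 0.57 (SE 0.27, edgeR adjusted p = 0.291). Adam11 was the only gene of this list in both tables.

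Of 22 Eph receptors and ephrins, 5 had a row in the WT table and 2 in the KO table. None of the 4 tested in WT was called by edgeR, while 3 had an unadjusted p under 0.05, as did 80.2% of all tested genes. The median log2 difference of the 4 was 2.54 beside 1.15 for all genes, and 1.87 for the 3 other than Ephb2 itself. Ephb6, a receptor without kinase activity, was 3.21 higher (SE 1.13, edgeR adjusted p = 0.329), the receptor Epha3 1.87 higher and the ligand Efnb1, which EPHB2 binds, 0.88 higher. Efna3, an ephrin-A ligand with too few reads for edgeR, went from 0 to 1.67 CPM on LF diet to no read on AMLN diet. It was at least 4.9-fold lower in the mean, but the ranges overlapped. DESeq2 called Efna3 lower with its own scaling (adjusted p = 0.028) and not with the deposited size factors (0.0783). In KO livers the ligand Efna1 stood at -0.78 (SE 0.27, edgeR adjusted p = 0.151), with 45.1 to 63.1 CPM on LF and 18.1 to 42.4 CPM on AMLN diet. No ephrin-B ligand had a row in the KO table and none was analysed there. Ephb2 was the only gene of this list in both tables.

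The cyclic AMP list held 69 genes, from receptors and G proteins through cyclases and phosphodiesterases to targets in liver, of which 12 had a row in WT and 9 in KO. By edgeR none of the 9 tested in WT passed, 7 of them having an unadjusted p under 0.05 beside 80.2% of all tested genes, with a median log2 difference of 0.95 beside 1.15 for all genes. In KO, 9 were tested, with a median of -1.06 beside -0.54 for all genes and 2.98% of all tested genes called in either direction. In WT, the 5 with the largest fitted differences among the genes edgeR could test were Adcy7 and Fos, described further on, the receptor Adrb3 at 1.37, the inhibitory G protein Gnai1 at 1.14 and Pck1, which controls gluconeogenesis, at -1.32, with edgeR adjusted p from 0.0684 to 0.591. Of those with too few reads for edgeR, Ptger4, a prostaglandin receptor, had a mean of 0.185 CPM on LF and 2.28 CPM on AMLN diet. Nr4a3 had no read on LF and 0.381 to 0.877 CPM on AMLN diet, at least 3.81-fold higher in the mean. With its own scaling, DESeq2 called 8 listed genes in WT, where it called 339 higher and 508 lower of 2555. Higher were Ptger4 (adjusted p = 0.0385), Nr4a3 (0.0305), Adcy7 (0.00157) and Fos (0.0322). Lower were Pck1 (0.00117), G6pc (0.022), Tat (0.0499) and Crem (0.0427). With the deposited size factors it called Ptger4, Nr4a3, Adcy7, Fos and Gnai1 higher and Pck1 lower. In KO, where Adcy3 itself was chosen and is not counted, 2 of the 8 other genes tested were called, and both fell and are targets of the pathway. G6pc, the glucose-6-phosphatase that releases glucose from hepatocytes, went from 283 to 367 CPM on LF to 125 to 190 CPM on AMLN diet and fell by 1.06 on the log2 scale (SE 0.21, edgeR adjusted p = 0.0476). Nr4a1, an immediate early nuclear receptor, fell by 1.86 (SE 0.36, edgeR adjusted p = 0.0475). With TMM both missed the threshold in KO, at adjusted p = 0.0726 and 0.0635. Both were lost without any 1 of KO AMLN replicates 1, 2 and 3 and KO LF replicates 1, 2 and 4 (edgeR adjusted p up to 0.183 and 0.165). G6pc was lower in the mean in WT as well, with 182 to 496 CPM on LF and 120 to 262 CPM on AMLN diet. Its log2 difference in WT was -0.98 (SE 0.35, edgeR adjusted p = 0.348), and the ranges overlapped. Adcy7, the cyclase of blood and immune cells, was the other adenylyl cyclase listed, at 2.74 in WT (SE 0.55, edgeR adjusted p = 0.0684) and 1.19 in KO (SE 0.42, edgeR adjusted p = 0.151). Its ranges did not overlap between diets in either genotype, AMLN higher, as was so for 33.9% of WT and 21.4% of KO rows. The stimulatory G protein Gnas was at 0.85 in KO (SE 0.24, edgeR adjusted p = 0.101), with no overlap between diets, AMLN higher, as for 21.4% of KO rows. Fos, an immediate early gene, stood at 2.65 in WT and at -1.60 in KO, without passing by edgeR in either (edgeR adjusted p = 0.224 and 0.104). DESeq2 called Fos higher in WT with both scalings (adjusted p = 0.0322 and 0.00952). In KO it called Fos lower with the deposited size factors alone (0.0192). Apart from Adcy3, DESeq2 with its own scaling called Gnas and Adcy7 higher and G6pc and Nr4a1 lower in KO. With the deposited size factors it called Gnas higher and G6pc, Nr4a1, Sik1 and Fos lower there. Adcy3, Adcy7, Crem, Fos and G6pc were the 5 genes of this list in both tables. Crem stood at -0.75 in WT and -0.84 in KO (edgeR adjusted p = 0.493 and 0.153). The lists were drawn up with earlier results of these data known.

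**Figure D3:**
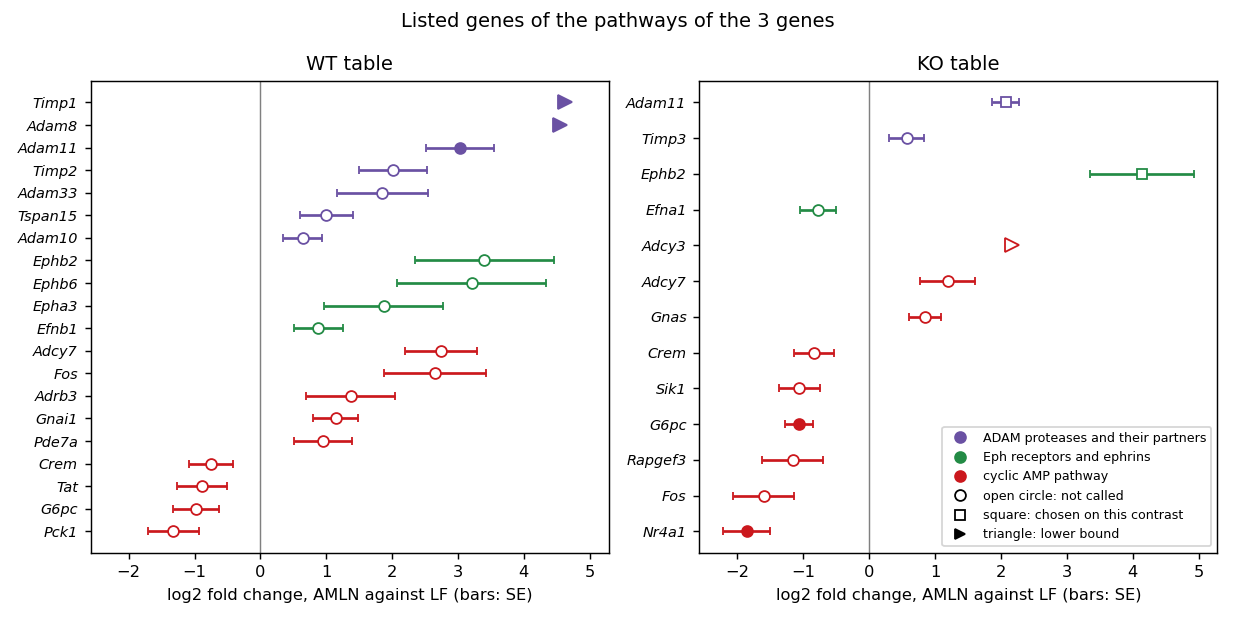
Log2 fold changes of AMLN against LF diet with standard errors for the listed genes of the ADAM, Eph and cyclic AMP lists that could be tested, in WT (left) and KO (right) livers. Filled circles passed the threshold and open circles did not, squares mark genes chosen on the KO contrast, and triangles mark lower bounds; G6pc and Nr4a1 are the filled points below 0 in KO.

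Listed genes lying within 200 kb of the 3 genes were followed as well. Genes there that were not listed for the diet could not be followed. Next to Ephb2 on the same strand lie C1qb, C1qc and C1qa, at 44.1, 53.8 and 59.9 kb, which code for the chains of complement C1q, made in liver mainly by macrophages. All 3 had rows in both tables and had no overlap between diets, AMLN higher, in either genotype, as was so for 33.9% of WT and 21.4% of KO rows. C1qc rose by 2.06 in WT (SE 0.32, edgeR adjusted p = 0.0263) and by 1.44 in KO (SE 0.22, edgeR adjusted p = 0.0316), from 11.5 ± 2.93 to 31.1 ± 1.19 CPM (SD, n = 4) in KO livers. C1qb was at 2.23 and 1.20, and C1qa at 1.56 and 1.15 in WT and KO, on the log2 scale, and edgeR called neither. With TMM both passed in KO (adjusted p = 0.00783 for C1qb and 0.0164 for C1qa) and C1qb in WT (0.0474), and DESeq2 with the deposited size factors called both in both genotypes (adjusted p from 4.20e-05 to 0.0443). The C1qc call was lost in WT without any single mouse other than WT LF replicate 3 (edgeR adjusted p up to 0.0957) and in KO without KO AMLN replicates 1, 2 or 3 or KO LF replicates 2 or 4 (up to 0.112). The even C1qc level of KO livers on AMLN diet, 29.5 to 32.3 CPM, contrasts with the 1.12 to 16 CPM of Ephb2 in the same livers. Zbtb40, 143.7 kb from Ephb2, was listed in KO alone and did not pass (0.73, edgeR adjusted p = 0.243).

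Near Adam11 lie Gjc1 at 19.3 kb on the opposite strand and Fzd2, a Wnt receptor, at 153.4 kb, both listed in WT alone and with too few reads to be tested. Gjc1 stood at no more than 0.0375 CPM on LF and at 0.0898 to 1.2 CPM on AMLN diet. Near Adcy3 lie Ptrhd1 at 20.5 kb, Ncoa1 at 33.8 kb, a coactivator of nuclear receptors, and Pomc at 172.5 kb, all listed in KO alone. Ptrhd1 stood at -1.11 (SE 0.42, edgeR adjusted p = 0.185) and Ncoa1 at 0.59 (SE 0.23, edgeR adjusted p = 0.189). By edgeR none of these was called; DESeq2 with its own scaling called Ncoa1 (0.92, adjusted p = 0.015).

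**Figure D4:**
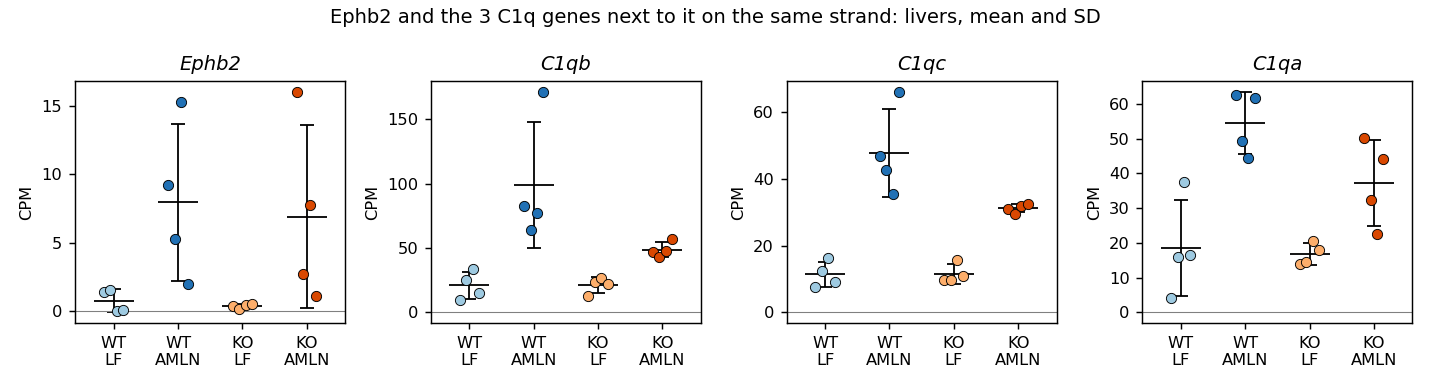
CPM of Ephb2 and of the closest genes listed on its strand, C1qb, C1qc and C1qa, in each liver (points), with mean and SD over 4 mice. C1qc is tight in KO livers on AMLN diet (29.5 to 32.3 CPM) where Ephb2 ranges from 1.12 to 16 CPM.

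Genes of the KO table with patterns like those of the 3 genes were sought by the root mean square difference of log2(CPM + 0.5), each gene centred on its mean, over the 8 KO mice. Likeness here is a description, and since all these genes were listed for the diet it largely follows the split between diets. For Adam11 they were Gm11695, Ms4a6c and Tlr13, at 0.28, 0.31 and 0.31, against a median of 1.30 over 3088 genes. For Ephb2 they were Lcn2, Ttc39a and Morc4, at 0.56, 0.56 and 0.57 against a median of 1.82. Lcn2, a secreted iron-siderophore-binding protein of the acute phase, had 17.7 to 90.2 CPM on AMLN diet, a spread of its own. For Adcy3, Gm10032 and Fyb (an adaptor of T cells and platelets) were at 0.13 and 0.17 against 0.92. Of these 8 genes, 6 also had a row in the WT table, where the likeness was lower. Among 2557 WT genes, Ttc39a ranked 14 and Lcn2 692 for Ephb2, Fyb 77 for Adcy3, and Gm11695 143, Tlr13 374 and Ms4a6c 1415 for Adam11. Among themselves the 3 genes were at 0.44 in KO and 1.37 in WT for Adam11 and Adcy3, at 0.89 and 1.03 for Adam11 and Ephb2, and at 1.08 and 1.34 for Ephb2 and Adcy3.

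**Figure D5:**
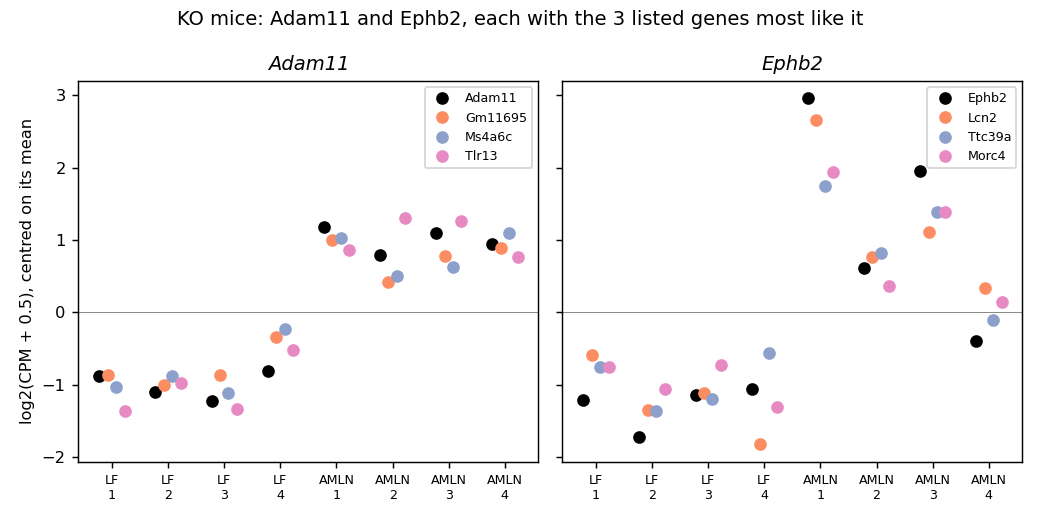
Log2(CPM + 0.5) of Adam11 (left) and Ephb2 (right), each with the 3 genes nearest to it, in the 8 KO mice, centred on each gene's mean, with replicates in number order. Adam11 forms 2 flat levels, whereas Ephb2 and its 3 nearest genes are highest in AMLN replicate 1 and lowest among the AMLN livers in replicate 4.

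In whole liver, fewer cells of a type and less RNA per cell cannot be told apart, and the summed levels of cell type markers are given here beside the 3 genes. A marker was listed only if the authors' unadjusted p for the diet was under 0.05. Differences of these sums between diets therefore follow in part from the listing and are a description. Of 8 hepatocyte markers, 4 were listed in KO, summing to 20042 to 30659 CPM on LF and 9770 to 16157 CPM on AMLN diet. In WT livers 2 were listed, at 5228 to 7642 CPM and 2253 to 5210 CPM. The sums were thus lower on AMLN diet in both genotypes, while edgeR called none of these markers. Of 7 markers of monocyte-derived macrophages, 5 were listed in each table, and their summed level was 38.2 to 381 CPM on LF and 316 to 1650 CPM on AMLN diet in WT livers, and 37.6 to 89 CPM and 92.5 to 184 CPM in KO livers. Of 7 Kupffer cell markers, 4 were listed in KO, summing to 45.1 to 72.7 CPM on LF and 119 to 159 CPM on AMLN diet. In WT 6 were listed, at 55.1 to 220 CPM and 281 to 555 CPM, and the C1q genes next to Ephb2 are among both. The WT markers did not all move alike. Of the 6, 4 were higher on AMLN diet without overlap, as were 33.9% of WT rows. Another 1 was lower without overlap, and no share of all rows is given for that direction. Of 6 T cell markers, 2 were listed in KO, at 0 to 0.637 CPM on LF and 0.701 to 2.9 CPM on AMLN diet, with none of the defining ones among them; in WT 3 were listed, Cd3e and Cd3g among them, at 0.161 to 0.496 CPM and 2.93 to 5.16 CPM. Of 8 stellate cell and fibroblast markers, 4 were listed in WT, at 10.7 to 27.3 CPM and 80.6 to 166 CPM, and 3 in KO, at 14.6 to 25.5 CPM and 21.9 to 82.2 CPM. Of 7 endothelial markers, 3 were listed in each table, at 9.93 to 26.6 CPM and 40.5 to 46.5 CPM in WT and 38.8 to 46.9 CPM and 46 to 59.3 CPM in KO. Of 7 cholangiocyte markers, 2 were listed in KO, at 2.16 to 3.29 CPM and 3.87 to 9.12 CPM, and 3 in WT, at 30.8 to 59.2 CPM and 51.3 to 243 CPM. Of 8 markers of neurons and glia, 1 was listed in WT, Mbp, and none in KO. Of 6 platelet and megakaryocyte markers, 1 was listed in WT, Pf4, at 0 to 0.858 CPM on LF and 2.21 to 4.58 CPM on AMLN diet. None was listed in KO. Markers of smooth muscle, B cells, neutrophils, adipocytes and mesothelium were also looked for, and their sums are not given here. edgeR called 3 of 5 monocyte-derived macrophage markers higher in WT and 1 of 5 in KO. For Kupffer cells it called 1 of 6 and 2 of 4, and for adipocytes 1 of 2 in each. In WT alone it called 1 of 4 stellate cell and fibroblast markers and the 1 T cell marker tested. No marker of the other lists was called, beside 2.48% of all genes tested in WT and 2.98% in KO. No defining marker listed in these lists was at 0 in all LF livers. Unlisted markers were not analysed here, and the part of these cells in the levels of the 3 genes was not tested.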

How the data were processed

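Liver RNA-seq of 16 mice was analysed, as 4 groups of 4 set by the sample labels. According to the paper, the authors aligned paired reads with STAR to mm10; the labels name HISAT2 instead, so the aligner is uncertain. The counting program, annotation release and strand setting are not given in the sources used here. The deposited counts per gene were made by the authors from these alignments, the deposited signal values are those counts divided by 1 size factor per library, and the FPKM values were computed by the authors from counts, gene length and a library total. The tables also hold the authors' log2 fold changes and p-values; these were not used as results, except that p-values and their adjusted values showed that every row of both tables had p under 0.05 and that the authors adjusted over 16784 (WT) and 13927 (KO) genes.

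Library totals were recovered from counts, lengths and FPKM, and CPM, with a log2 prior of 0.5, was computed on them. Counts were tested with edgeR 4.0.16 (quasi-likelihood, filterByExpr, limma 3.58.1, R 4.3.3) with these totals as library sizes; diet p-values were adjusted over the authors' gene numbers, genotype and interaction p-values over the genes tested in both tables. DESeq2 1.42.0, TMM, no filter, adjustment over tested genes, a replicate block and each mouse left out were alternatives; the fits were tested on simulated data. No replicate information beyond numbers was given, so p-values measure the spread between these mice. Exact two-sided permutation tests used scipy 1.17.1. A fold against a group at 0 used a floor of 3 counts per library, and such bounds cover counting error only. Named genes were the 3 genes, genes of 3 pathway lists called or, in long lists, the 5 with the largest change per table, neighbours within 200 kb, the 3 nearest patterns per gene and defining markers. Other genes of these lists, such as Ephb6, Timp2 and Gnas, were picked knowing their values; 1 gene the rule names is not reported here. The genes and lists were chosen with earlier results of these data known. Promoter windows came from RefSeq; deposited coordinates equalled GENCODE vM21 for 96.1% of WT and 94.8% of KO rows.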

Additional observations from a re-analysis of the deposited data

Results flagged for a closer look

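Among 36 groups of 4 mice looked at for the 3 genes and their neighbours, 5 had a highest mouse standing far from the other 3 by Dixon's criterion. It flags about 1 group in 20 by chance where values are normally distributed, which counts near 0 are not. For Adcy3 it was the single KO LF liver with 1 read, at 0.0584 CPM, where the other 3 had none. C1qb reached 171 CPM in 1 WT AMLN liver. Fzd2 reached 0.188 CPM and Gjc1 0.0375 CPM in 1 WT LF liver each, and Pomc 0.159 CPM in 1 KO AMLN liver. In the cases other than C1qb the distance rests on a few reads in 1 mouse, and the other 3 had none. Such a group is flagged whatever the number of reads, so the rate of 1 in 20 does not apply to it.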

How the results depend on the processing

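Because both tables hold selected genes, counts of called genes moved strongly. In WT, edgeR called 50 genes higher and 2 lower. Adjusting over the genes tested gave 807 and 317, DESeq2 339 and 508, DESeq2 with the deposited size factors 518 and 126, TMM 58 and 7, and no filter 80 and 3. In KO it called 45 and 47, against 825 and 1362, 1115 and 388, 467 and 730, 176 and 38, and 45 and 49 in the same order. DESeq2 and TMM thus also moved the split between higher and lower genes, and the median gene in KO from -0.54 to -0.18. Leaving out 1 mouse gave 2 to 59 higher and 0 to 2 lower in WT, and 1 to 83 higher and 0 to 103 lower in KO.

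Numbers do not pair the mice: same-numbered livers of the 2 diets deviated with correlations of -0.341 to 0.272 in WT and -0.466 to 0.261 in KO. With the replicate block, 10 higher and 0 lower genes were called in WT and 4 and 0 in KO, Adam11 in WT stood at 3.13 (edgeR adjusted p = 0.0878), and the ADAM list in WT and the Eph and cyclic AMP lists in KO had 0 called. On AMLN diet the block gave 13 higher and 103 lower genes between genotypes, and 0 lower for the difference in diet response.

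Adam11 in WT ran from 2.74 to 3.31 and Ephb2 from 2.87 to 4.02 over the omissions of 1 mouse. Ephb2 in WT passed when adjusted over the genes tested (3.40, edgeR adjusted p = 0.0311), with DESeq2 (2.97, adjusted p = 0.0438) and with DESeq2 and the deposited size factors (3.41, adjusted p = 0.0215). In KO, Adam11 ran from 1.99 to 2.14, Ephb2 from 3.3 to 4.49 and the fitted Adcy3, which depends on the prior count, from 4.93 to 7.11. Adam11 in KO was at 2.39 with DESeq2 and 2.41 with TMM, and Adcy3 at 5.84, 5.60 and, with the deposited size factors, 5.49.

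Of the ADAM list in WT, 5 genes were called when adjusted over the genes tested and 5 with DESeq2, and 0 to 3 without 1 mouse; in KO, 2 with DESeq2. Of the Eph list in WT, 2, 2 and, with the deposited size factors, 1 were called, and in KO 2 when adjusted over the genes tested and 0 to 1 without 1 mouse. Of the cyclic AMP list in WT, 5, 8 and 6 were called, and in KO 9, 5 and 6, and 0 to 4 without 1 mouse. By edgeR, 7 ADAM, 4 Eph and 9 cyclic AMP genes were tested in WT, and 2, 2 and 9 in KO. Of all genes adjusted over those tested, 807 were called higher and 317 lower of 2096 in WT, and 825 and 1362 of 3089 in KO. DESeq2 also took rows too low for edgeR, and called 339 and 508 of 2555 in WT, and 1115 and 388 of 3399 in KO. The KO list counts can include Adam11, Ephb2 and Adcy3, which were chosen on that contrast. No list is read as set apart by these counts.

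Between genotypes on AMLN diet, DESeq2 called 17 genes higher and TMM 11 higher and 36 lower, and omissions gave 1 to 4 higher and 21 to 81 lower. Ephb2 reversed to 0.17 with DESeq2, 0.06 with TMM, and ran from -1.04 to 0.32 over omissions. For the difference in diet response, TMM called 11 higher and 8 lower, DESeq2 12 and 33, and omissions 0 to 4 and 0 to 20; Ephb2 ran from -0.10 to 1.26 and Adcy3 from 0.57 to 3.68. The causes of these shifts were not tested. Adcy3, at 0 to 99 reads, and Ephb2 on LF diet, at 0 to 29 reads, are limited by depth.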
